A study of Mus musculus with 4 samples.

Results

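The chemokine ligands are the genes whose mouse symbol begins with Ccl or Cxcl and a number, together with Xcl1, Cx3cl1, Pf4 and Ppbp. There are 42 of them among the 49315 genes of the count table, and 34 had at least 1 count. Poly(A) RNA was sequenced from mouse bone marrow-derived macrophages, cells grown from marrow with medium conditioned by L cells, a source of macrophage growth factor. At day 7 of culture they were polarized for 24 hours in serum-free medium. The M1 libraries (n = 2) came from cells given LPS at 100 ng/ml and interferon gamma at 50 ng/ml, and the M2 libraries (n = 2) from cells given IL-4 and IL-13 at 10 ng/ml each. The cells of both groups are labelled Lyz2Cre+, so M1 and M2 shared a Cre recombinase placed in the Lyz2 gene, which is active in myeloid cells, and the labels name no floxed allele. The treatment protocol allows for the EGF receptor inhibitor erlotinib, and whether any of the 4 cultures had it is not labelled. Cells without a polarizing stimulus were not analysed here, and each value is therefore M1 set against M2.

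Chemokines are small, mostly secreted proteins that direct leukocyte movement through G protein-coupled receptors. They are named by the spacing of their first cysteines (C, CC, CXC and CX3C), and members that share a receptor tend to attract the same cells. Macrophages are a major source: interferon gamma and LPS are known to induce chemokines for type 1 T cells, monocytes and neutrophils, and IL-4 and IL-13 are known to induce chemokines for type 2 T cells and eosinophils.

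The libraries held 26806370 to 39506242 counts. All 8 macrophage markers examined had counts, with sums of 8208 and 8194 CPM (read counts scaled to library size, here with TMM factors) in M1 and 4482 and 4367 CPM in M2. They went both ways. Cd14 (3035 and 3241 CPM in M1, 37.2 and 33.3 CPM in M2) and Adgre1 (3055 and 3123 CPM in M1, 1365 and 1292 CPM in M2) carried most of the M1 sum. Csf1r (254 and 274 CPM in M1, 1673 and 1607 CPM in M2) and Cd68 (129.8 and 107 CPM in M1, 1225 and 1261 CPM in M2) were lower in M1. Lyz2 itself had only 25.3 and 27.3 CPM in M1 and 6.51 and 6.88 CPM in M2. Its near-identical neighbour Lyz1 can share its reads, and the cells carry Cre in the Lyz2 gene. The part of either in the Lyz2 level was not tested. Markers of other cells moved with the groups as well. The 6 fibroblast or stromal markers, all with counts, summed to 111 to 119 CPM in M1 and 1137 to 1162 CPM in M2, most of it from Col1a1 and Col1a2. The 5 endothelial markers summed to 261 to 283 CPM in M1 and 9.19 to 10.5 CPM in M2, nearly all from Kdr and Pecam1. Cdh5, which defines endothelium, stayed under 1 CPM in each library. In bulk samples a change in the number of cells of a type and a change in RNA per cell cannot be told apart. The neutrophil, mast cell, T cell, B cell and epithelial lists each summed to at most 9.80 CPM in any library. Whether replicates were separate animals or cultures is not labelled. The p-values therefore measure a spread that could be purely technical.

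Chemokine transcripts were far more abundant in M1. They took 1.86% and 1.95% of all counts in the M1 libraries, against 0.107% in each M2 library (exact 95% binomial intervals 1.85% to 1.86% and 1.94% to 1.95% in M1, 0.106% to 0.109% and 0.106% to 0.108% in M2, for counting error only). Their summed level was 22254 ± 388 CPM in M1 and 919 ± 0.752 CPM in M2 (SD, n = 2 each), a ratio of 24.2. No test is given for this sum, since 2 libraries against 2 cannot go below p = 0.333 in an exact permutation test.

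Gene by gene, 29 of the 42 members had enough counts to be tested, which were 29 of the 14656 genes tested in all. With edgeR's quasi-likelihood test and an adjusted p under 0.05, 17 were higher and 11 lower in M1, and Ccl27a was not called. Across all tested genes 77.2% were called, 37.5% higher and 39.7% lower in M1, so a call alone sets little apart here. The members higher in M1 made up 58.6% of those tested and the members lower in M1 37.9%, the second close to the background. The size of the differences was further from the background. A difference of at least 5 log2 units was called for 12 members, against 4.59% of all tested genes. Of these, 9 were higher in M1, against 2.59% of all tested genes, and 3 lower in M1, against 2.00%. The 3 were Ccl6, Ccl11 and Ccl17, and the fitted sizes of Ccl11 and Ccl17 rest on 1 and 0 counts in M1. Ccl17 was at least 18.3-fold lower in M1, and the counting interval of Ccl11 began at 8.32-fold. Neither bound reaches 5 log2 units. The median log2 fold change (M1 minus M2) was 2.64 over the tested members and -0.04 over all tested genes. Members that passed the filter through 1 group alone had to differ, so these counts describe the family and are no separate evidence. For each of the 29 tested members the M1 and M2 libraries did not overlap, which held for 88.5% of all tested genes. No member changed its call under RLE, upper-quartile or total-count scaling.

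**Figure D1:**
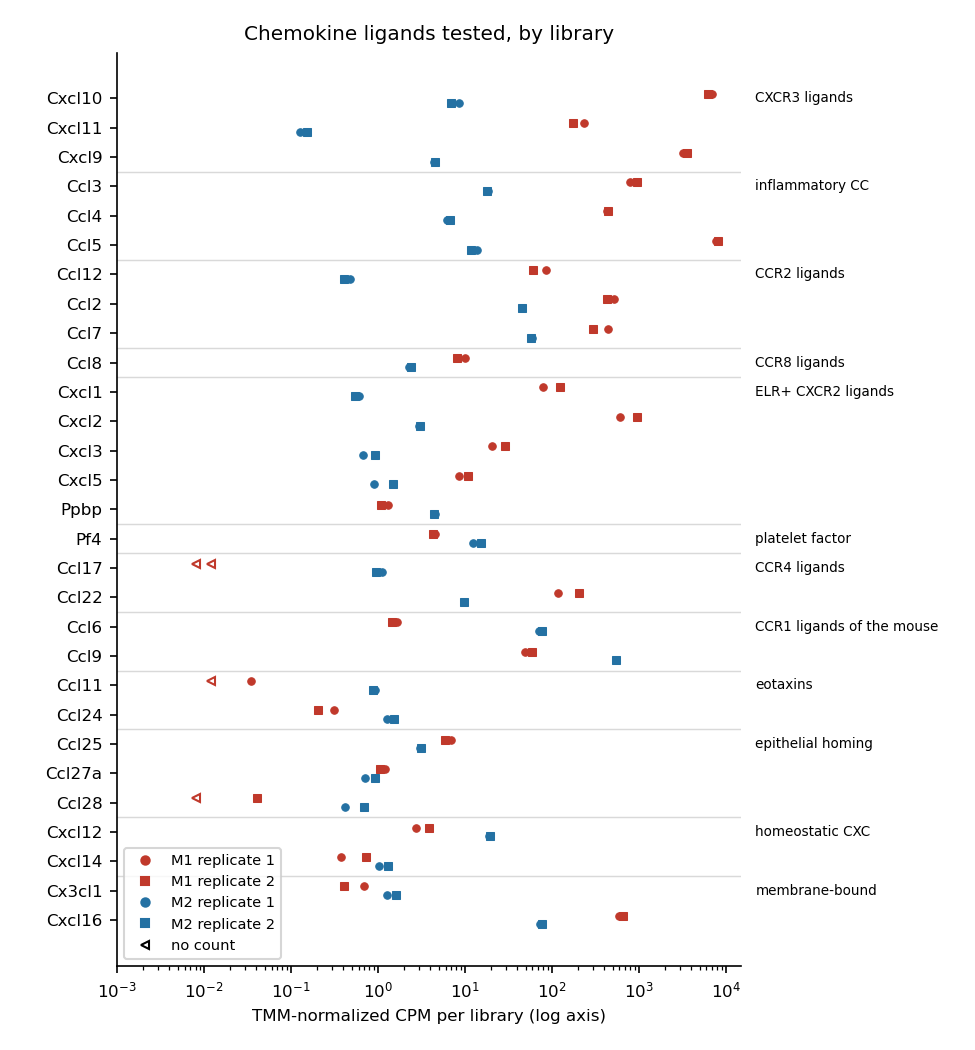
Level of each of the 29 tested chemokine ligands in each library, as TMM-normalized CPM on a log axis, grouped by receptor or role; circles are replicate 1, squares replicate 2, red M1, blue M2, and open triangles mark libraries with no count. The CXCR3 ligands and Ccl5 lie furthest to the right in M1 relative to M2, and Ccl6, Ccl9, Cxcl12 and Pf4 lie further right in M2.

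The ligands of CXCR3, the receptor of type 1 T cells and natural killer cells, showed the widest separation. Cxcl10 had 7014 and 6328 CPM in the M1 libraries, against 8.52 and 6.86 CPM in the M2 libraries. Cxcl9 had 3205 and 3556 CPM in M1, against 4.47 and 4.56 CPM in M2. Cxcl11 had 232 and 177 CPM in M1, against 0.128 and 0.152 CPM in M2. Both M1 libraries lay far above both M2 libraries for all 3, and in M2 only Cxcl11 was under 1 CPM. The fitted difference was 876-fold for Cxcl10 (log2 fold change 9.77, SE 0.13, edgeR adjusted p = 5.37e-17), 747-fold for Cxcl9 (9.55, SE 0.12, 1.46e-17) and 1406-fold for Cxcl11 (10.46, SE 0.27, 4.13e-08). The Cxcl11 fold rests on 4 and 7 counts in the M2 libraries, and its ratio of pooled counts has an exact 95% counting interval of 815 to 2922, which takes in the fold of Cxcl10 but not that of Cxcl9. Cxcl11 is annotated as a polymorphic pseudogene, so its RNA need not encode a working chemokine. On the opposite strand Cxcl10 shares 133 exonic bases with Art3, which had at most 37 counts in a library, and Cxcl11 shares 1582 with a pseudogene that had no count. The genes lie side by side on chromosome 5 of GRCm38, Cxcl9 at chr5:92321347-92328079, Cxcl10 at chr5:92346638-92348889 and Cxcl11 at chr5:92359544-92365485, all on the minus strand.

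The stretch before the start of Cxcl10 is shown because Cxcl10 had the highest level per kilobase of the 3 and its window held matches to more than one of the motifs searched. It covers chr5:92348890-92349139 (minus strand, RefSeq on GRCm38.p6), printed 5′ to 3′, with matches in capitals.
Cxcl10: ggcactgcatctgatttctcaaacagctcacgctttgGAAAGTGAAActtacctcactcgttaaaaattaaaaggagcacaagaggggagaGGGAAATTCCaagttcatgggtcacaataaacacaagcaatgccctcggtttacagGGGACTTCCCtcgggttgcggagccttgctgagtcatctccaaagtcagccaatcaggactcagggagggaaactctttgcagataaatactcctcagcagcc
The motifs searched on both strands of the 250 bases before each start were the NF-kappaB decamer consensus, the interferon-stimulated response element (ISRE) as 2 copies of GAAA with any 2 bases between, the gamma-activated site (GAS) of interferon gamma signalling as TTC, any 3 bases and GAA, and the site preferred by STAT6 as TTC, any 4 bases and GAA. Positions count back from the RefSeq start. In Cxcl10 the ISRE match runs from -213 to -204 and the NF-kappaB matches from -159 to -150 and from -103 to -94. Of the 29 members with a promoter entry, 6 held an NF-kappaB match and 3 an ISRE match, against 4.46% and 3.46% of the 27025 genes scanned. By direction, an NF-kappaB match stood before 4 of 10 members higher in M1, 1 of 9 lower in M1 and 1 of 9 not tested. The 4 were Cxcl1, Cxcl2, Cxcl3 and Cxcl10. The ISRE matches stood before Cxcl10 among 10 members higher in M1, Cxcl14 among 9 lower in M1 and Ccl19 among 9 not tested. A match is a string of letters and not evidence of binding, and its part in the levels was not tested.

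Among the inflammatory CC chemokines Ccl3, Ccl4 and Ccl5, which attract T cells and monocytes, Ccl5 had the highest level per kilobase of exon of the family in M1. It had 7761 and 8200 CPM in the M1 libraries, against 14.0 and 11.7 CPM in the M2 libraries, and was 624-fold higher in M1 (log2 fold change 9.29, SE 0.12, edgeR adjusted p = 1.49e-17). Ccl3 had 793 and 963 CPM in M1, against 18.6 and 18.1 CPM in M2 (47.9-fold, adjusted p = 1.31e-14). Ccl4 had 426 and 440 CPM in M1, against 6.16 and 6.82 CPM in M2 (66.3-fold, adjusted p = 2.44e-17). None of the 3 overlapped between groups, which also held for 88.5% of all tested genes. Ccl3 had the highest M2 level of the 3 per kilobase.

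The CCR2 ligands, which attract monocytes, were all higher in M1, by very different amounts. Ccl2, the main monocyte chemoattractant, had 521 and 430 CPM in M1, against 45.8 CPM in each M2 library, and was 10.4-fold higher in M1 (log2 fold change 3.38, SE 0.09, edgeR adjusted p = 1.35e-12). Ccl7 had 439 and 297 CPM in M1, against 59.7 and 58.1 CPM in M2, a 6.25-fold difference (2.64, SE 0.24, 0.00153). Ccl12 had 86.6 and 61.1 CPM in M1, against 0.479 and 0.412 CPM in M2, a 167-fold difference (7.38, SE 0.33, 2.34e-05). The M2 mean was thus 9.62% of the M1 mean for Ccl2 and 16.0% for Ccl7, but 0.603% for Ccl12. Ccl8, a ligand of CCR8 in the mouse, was modest in both groups, with 9.95 and 8.13 CPM in M1 and 2.30 and 2.39 CPM in M2 (3.86-fold higher in M1, adjusted p = 9.85e-09). Ccl1, the other CCR8 ligand, had 1 count in M1 and 2 in M2 and was not tested.

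The ELR-positive CXC chemokines, which carry the residues Glu-Leu-Arg before the first cysteine and attract neutrophils through CXCR2, divided. Cxcl1, Cxcl2, Cxcl3 and Cxcl5 were higher in M1. Cxcl2 had 606 and 954 CPM in the M1 libraries, against 2.94 and 3.08 CPM in the M2 libraries, and was 258-fold higher in M1 (log2 fold change 8.01, SE 0.40, edgeR adjusted p = 3.51e-04). Cxcl1 had 78.7 and 125 CPM in M1, against 0.607 and 0.543 CPM in M2 (177-fold, adjusted p = 0.00122). For both genes the M1 libraries stood apart from each other, replicate 2 being the higher. Cxcl3 had 20.7 and 28.8 CPM in M1, against 0.670 and 0.933 CPM in M2 (29.8-fold, adjusted p = 1.43e-08). Cxcl5 had 8.61 and 10.9 CPM in M1, against 0.894 and 1.498 CPM in M2 (7.80-fold, adjusted p = 1.96e-08). Ppbp, the fifth of the group, went the other way and is given below with Pf4. Cxcl15, a lung chemokine, had no count.

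Cxcl1, Cxcl2 and Cxcl3 shared the same 11-letter run, GGGAATTTCCC, which holds an NF-kappaB match on each strand, and no other match to the motifs searched. Their upstream sequences are set side by side because this run is common to them (RefSeq, GRCm38.p6, plus strand, ending before the annotated gene start). They cover chr5:90890995-90891240, chr5:90903649-90903870 and chr5:90785851-90786100.
Cxcl1: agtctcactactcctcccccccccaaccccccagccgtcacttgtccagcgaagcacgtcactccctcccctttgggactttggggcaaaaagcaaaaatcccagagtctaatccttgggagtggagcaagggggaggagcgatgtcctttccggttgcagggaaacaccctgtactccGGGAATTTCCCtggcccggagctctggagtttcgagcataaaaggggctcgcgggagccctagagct
Cxcl2: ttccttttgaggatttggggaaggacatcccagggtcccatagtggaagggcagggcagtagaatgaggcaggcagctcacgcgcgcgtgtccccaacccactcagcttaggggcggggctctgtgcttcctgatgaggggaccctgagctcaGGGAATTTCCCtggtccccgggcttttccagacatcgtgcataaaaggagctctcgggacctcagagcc
Cxcl3: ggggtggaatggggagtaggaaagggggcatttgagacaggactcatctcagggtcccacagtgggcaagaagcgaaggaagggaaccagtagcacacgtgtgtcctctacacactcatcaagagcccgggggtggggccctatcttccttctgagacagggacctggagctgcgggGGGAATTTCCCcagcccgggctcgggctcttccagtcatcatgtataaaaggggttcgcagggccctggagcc
Counted from the RefSeq start, the paired matches lie from -71 to -61 in Cxcl1, from -97 to -87 in Cxcl2 and from -73 to -63 in Cxcl3. The printed sequences of Cxcl1 and Cxcl2 stop 4 and 28 bases short of that start, and the sequence of Cxcl3 reaches it.

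The membrane-bound chemokines also went in opposite directions. Cxcl16, a transmembrane ligand of CXCR6 that also takes up oxidized lipoprotein, had 588 and 664 CPM in the M1 libraries, against 73.4 and 76.5 CPM in the M2 libraries. It was 8.35-fold higher in M1 (log2 fold change 3.06, SE 0.08, edgeR adjusted p = 1.43e-14) and was clearly present in both groups. It shares 552 exonic bases with Zmynd15 on the opposite strand, and the library kit does not mark strand. Zmynd15 had 1489 and 1344 counts in M1 and 199 and 302 in M2. Cxcl16 had 17127 and 16317 counts in M1 and 2298 and 3522 in M2. Cx3cl1, fractalkine, was scarce, with 0.686 and 0.407 CPM in M1 and 1.28 and 1.61 CPM in M2 (2.61-fold lower in M1, adjusted p = 0.00101).

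The ligands of CCR4, the receptor of type 2 and regulatory T cells, were split. Ccl22 had 119 and 206 CPM in the M1 libraries, against 9.90 and 9.88 CPM in the M2 libraries, and was 16.4-fold higher in M1 (log2 fold change 4.04, SE 0.40, edgeR adjusted p = 0.00350). Both M1 libraries lay above both M2 libraries, but M1 replicate 2 lay well above M1 replicate 1, and the call was lost without M2 replicate 1 (adjusted p = 0.176) or without M2 replicate 2 (adjusted p = 0.181). The log2 fold change was 4.02 in both of these fits. A group left with 1 library gives no spread of its own, so that library is assumed to vary like the pair in the other group, here the discordant M1 pair. Dendritic cells are a known source of Ccl22 and Ccl17. All 5 dendritic cell markers had counts. They summed to 33.4 and 34.4 CPM in M1, nearly all from Xcr1, and to 2.65 and 2.32 CPM in M2. Zbtb46 went the other way, with 0.858 and 0.935 CPM in M1 and 2.20 and 1.41 CPM in M2. Clec9a and Flt3 were higher in both M1 libraries, and Siglech overlapped between groups. The part of dendritic cells in these results was not tested. Ccl17 had no count in either M1 library, against 1.12 and 0.955 CPM in the M2 libraries (35 and 44 counts). Against a floor of 3 counts over the M1 group it was at least 18.3-fold lower in M1 (adjusted p = 2.04e-06). Even in M2, where Ccl17 was detected, its level was below that of Ccl22: per kilobase of exon, the means were 2.02 CPM for Ccl17 and 4.25 CPM for Ccl22. The pair lies on chromosome 8 with Cx3cl1 between them, Ccl22 at chr8:94745590-94751699 and Ccl17 at chr8:94810453-94812036, both on the plus strand.

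The sequence before Ccl17 (chr8:94810203-94810452, plus strand, RefSeq on GRCm38.p6) is shown because it alone among the scanned members held a match to the STAT6 site, in capitals from -154 to -145, beside a GAS match from -99 to -91.
Ccl17: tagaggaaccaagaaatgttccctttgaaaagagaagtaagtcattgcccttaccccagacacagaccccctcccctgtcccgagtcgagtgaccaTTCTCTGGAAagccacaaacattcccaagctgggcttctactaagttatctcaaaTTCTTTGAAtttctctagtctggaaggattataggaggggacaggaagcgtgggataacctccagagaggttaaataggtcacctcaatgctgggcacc
A STAT6 match stood before 6.76% and a GAS match before 8.13% of all genes scanned. Cxcl14, also lower in M1, held the only other GAS match among the scanned members. No match to the motifs searched was found for Ccl22, but 13 members had no promoter entry and could not be searched.

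The eotaxins, which attract eosinophils through CCR3, were detected at low level and were lower in M1. Ccl24 had 0.309 and 0.203 CPM in the M1 libraries, against 1.28 and 1.54 CPM in the M2 libraries (5.41-fold lower in M1, edgeR adjusted p = 1.99e-05). Summed over each group, Ccl11 had 1 count in M1 and 69 in M2, an M2 over M1 ratio of 47.9 after scaling with an exact 95% counting interval of 8.32 to 1919 (adjusted p = 5.20e-06). Fibroblasts are a known source of Ccl11. The summed stromal markers given above were lower in M1 as well, although Dcn and Lum were higher there, and their part in the Ccl11 result was not tested. Ccl26 had no count.

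Ccl9 and Ccl6, chemokines known chiefly from rodents that act through CCR1, had the highest M2 levels per kilobase of the members lower in M1. Ccl9 had 49.7 and 59.8 CPM in the M1 libraries, against 552 and 545 CPM in the M2 libraries, and was 10.0-fold lower in M1 (log2 fold change -3.33, SE 0.09, edgeR adjusted p = 8.32e-14). Ccl6 had 1.65 and 1.46 CPM in M1, against 71.7 and 76.8 CPM in M2, a 47.4-fold difference (-5.57, SE 0.11, 7.12e-16). Ccl9 was thus present in both groups, and Ccl6 fell close to 1 CPM in M1. They are neighbours, 9.245 kb apart on chromosome 11, Ccl9 at chr11:83572919-83578636 and Ccl6 at chr11:83587882-83593087, both on the minus strand. The sequence before Ccl9 covers chr11:83578637-83578886 (minus strand, RefSeq on GRCm38.p6). It is given since it held the only NF-kappaB match among the 9 scanned members lower in M1. The match is in capitals from -35 to -26 and read on the opposite strand.
Ccl9: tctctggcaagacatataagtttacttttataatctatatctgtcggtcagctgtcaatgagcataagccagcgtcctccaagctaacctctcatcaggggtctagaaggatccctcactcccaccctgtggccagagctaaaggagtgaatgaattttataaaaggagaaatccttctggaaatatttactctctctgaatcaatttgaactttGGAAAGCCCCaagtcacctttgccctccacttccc

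Pf4 and Ppbp, best known from platelet granules, were lower in M1 too. Pf4 had 4.50 and 4.27 CPM in the M1 libraries, against 12.3 and 15.3 CPM in the M2 libraries (3.16-fold lower in M1, edgeR adjusted p = 2.13e-08). Ppbp had 1.30 and 1.10 CPM in M1, against 4.60 and 4.43 CPM in M2 (3.72-fold lower in M1, adjusted p = 2.51e-07). The 6 megakaryocyte or platelet markers, all with counts, summed to 9.23 and 12.6 CPM in M1 and 15.3 and 18.3 CPM in M2. Of these, Itga2b had 7.24 and 9.92 CPM in M1 and 7.18 and 9.20 CPM in M2. Gp9, Gp1bb and Gp6 stayed under 1 CPM in each library. Of these 3, Gp1bb (0.275 and 0.325 CPM in M1, 0.830 and 0.912 CPM in M2) and Gp6 (0.515 and 0.529 CPM in M1, 0.894 and 0.608 CPM in M2) had lower values in both M1 libraries. Gp9 (0.309 and 0.325 CPM in M1, 0.192 and 0.239 CPM in M2) had higher ones. Most of the difference in the sum lay in Treml1, with 0.549 and 1.06 CPM in M1 and 5.81 and 6.92 CPM in M2. Their part in the Pf4 and Ppbp result was not tested.

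Of the homeostatic CXC chemokines, Cxcl12, the ligand of CXCR4 that holds blood progenitors in the marrow, had 2.75 and 3.82 CPM in the M1 libraries, against 19.1 and 19.6 CPM in the M2 libraries. It was 5.96-fold lower in M1 (log2 fold change -2.57, SE 0.13, edgeR adjusted p = 7.48e-11). Cxcl14 had 0.378 and 0.732 CPM in M1, against 1.02 and 1.32 CPM in M2, and its call (adjusted p = 0.00807) was lost with DESeq2 (0.127), without M1 replicate 1 (0.109, log2 fold change -0.70) and without M2 replicate 2 (0.0628, log2 fold change -0.92). Stromal cells are a known source of both, and the sum of the stromal markers given above was likewise lower in M1. Of those markers, Dcn (17.5 and 12.5 CPM in M1, 6.10 and 7.66 CPM in M2) and Lum (1.30 and 1.38 CPM in M1, 0.638 and 0.673 CPM in M2) had the opposite pattern to Cxcl12. The part of stromal cells in these results was not tested. Cxcl13, a B cell attractant, had 1 count in all and Cxcl17 none.

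The epithelial homing chemokines were scarce. Ccl25, which draws cells to thymus and gut, had 6.86 and 5.90 CPM in the M1 libraries, against 3.06 and 3.10 CPM in the M2 libraries. It was 2.07-fold higher in M1 (log2 fold change 1.05, SE 0.14, edgeR adjusted p = 8.36e-06), and 204 of its 7445 exonic bases are shared with Elavl1 on the opposite strand. Elavl1 had 1955 and 1760 counts in M1 and 1812 and 2705 in M2. Ccl25 had only 200 and 145 counts in M1 and 96 and 143 in M2. The part of shared reads in the Ccl25 level was not tested. Ccl28 had 1 count in M1 and 45 in M2, an M2 over M1 ratio of 31.2 with a counting interval of 5.33 to 1261 (adjusted p = 1.19e-04). Ccl27a had 1.20 and 1.06 CPM in M1 and 0.702 and 0.933 CPM in M2 (log2 fold change 0.44, SE 0.29, adjusted p = 0.176), so a difference was not shown at this depth. The 13 members not tested had at most 2 counts in any library. Apart from Ccl1 and Cxcl13 they included Ccl20 and Ccl19-ps1 with 1 count each and Xcl1 with 3 counts in M1 and 1 in M2. The 8 with no count were Ccl19, Ccl19-ps3, Ccl21a, Ccl21b, Ccl26, Ccl27b, Cxcl15 and Cxcl17. Copies of Ccl19, Ccl21 and Ccl27 are near-identical, so reads from them could have been lost or split in counting.

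**Figure D2:**
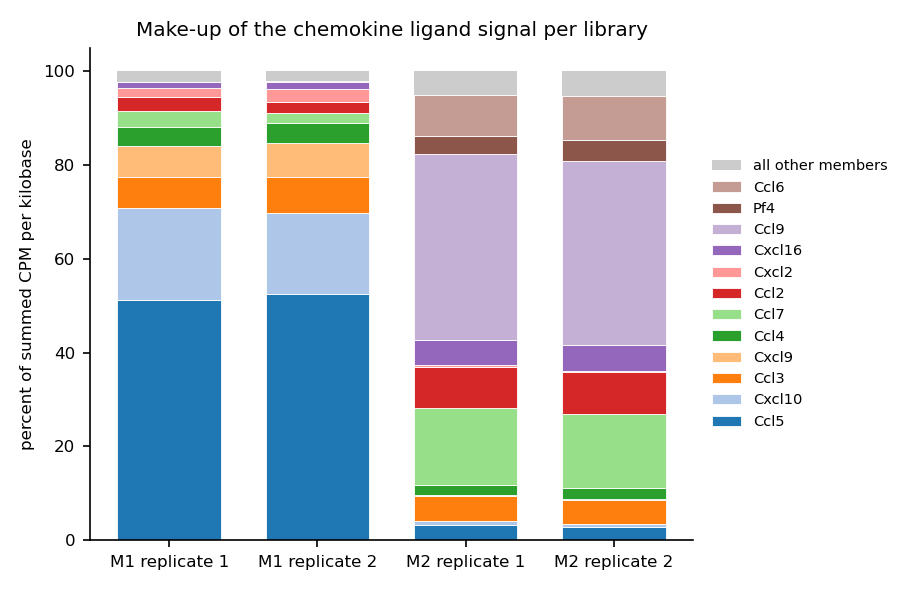
Percent of the summed chemokine level per kilobase of exon taken by each member, in each library; members with a group mean of at least 2% are coloured and the rest are grey. Ccl5 and Cxcl10 fill most of both M1 bars, and Ccl9, Ccl7, Ccl6 and Ccl2 fill most of both M2 bars.

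The make-up of the chemokine signal therefore differed, as measured per kilobase of exon so that members can be compared with one another. In M1, Ccl5 stood first at 8313 ± 323 CPM per kilobase (SD, n = 2), followed by Cxcl10 at 2962 ± 216. Ccl3 (1146 ± 157) and Cxcl9 (1121 ± 82.4) came next and could not be ordered, since their libraries overlapped. Ccl7, Ccl2 and Cxcl2 likewise could not be ordered. Ccl5, Cxcl10 and Ccl3 together carried 77.4% and 77.5% of the signal in the M1 libraries, against 9.36% and 8.52% in the M2 libraries. In M2, Ccl9 stood first at 180.2 ± 1.71 CPM per kilobase and Ccl7 second at 73.5 ± 1.37. Ccl6 (41.4 ± 2.02) and Ccl2 (40.2 ± 0.00163) followed, with overlapping libraries. Ccl9 took 0.112% ± 0.0124 of the signal in M1 and 39.5% ± 0.474 in M2, and Ccl5 took 51.8% ± 0.987 in M1 and 2.94% ± 0.369 in M2. Ccl7 and Ccl2 were higher in M1 by level but took smaller shares there, 2.87% ± 0.840 and 2.61% ± 0.405 in M1 against 16.1% ± 0.341 and 8.82% ± 0.0216 in M2. Shares within a library are bound to one another, so a fall in one is not a fall in level.

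**Figure D3:**
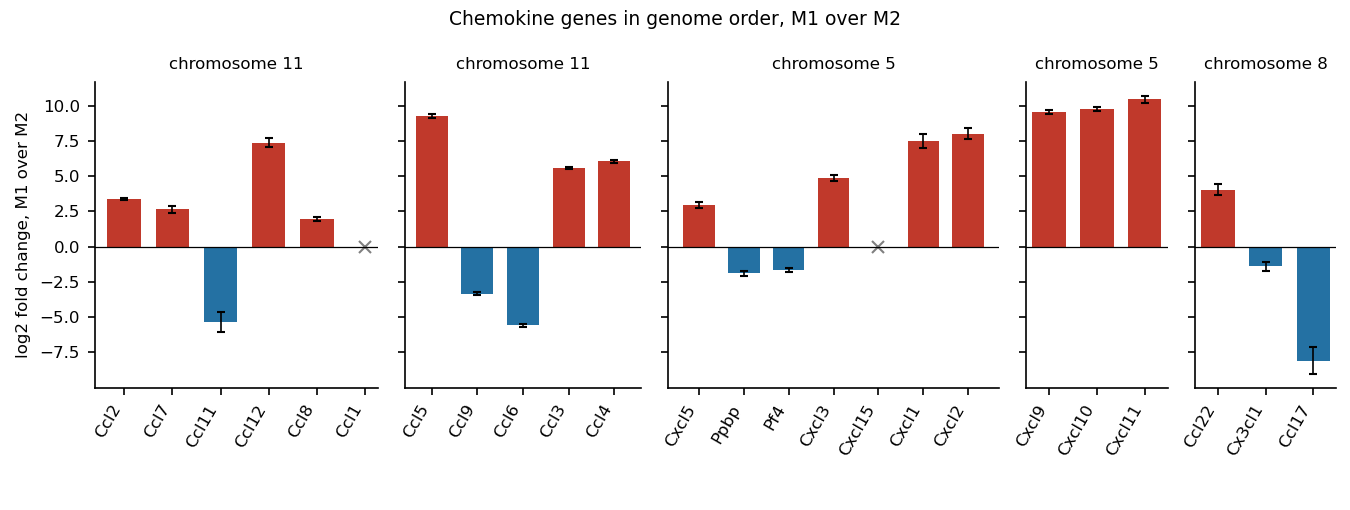
Log2 fold change (M1 over M2) of the members in the 5 groups of at least 3 neighbouring genes with a tested member, in genome order; error bars are SE, red bars are higher and blue bars lower in M1, and crosses are genes not tested. The Cxcl9, Cxcl10 and Cxcl11 group points one way, and each of the other 4 holds genes of both directions; the fitted bars of Ccl11 and Ccl17 rest on 1 and 0 counts in M1.

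Most chemokine genes lie in tandem groups, and direction changed between some neighbours. With gaps of at most 150 kb, 33 of the 42 members fell into 9 groups, and 4 of these groups held calls in both directions. Groups with 1 called member or none could not do so. Across all tested genes 37.5% were called higher and 39.7% lower in M1, so neighbours of opposite direction set little apart. Whether direction changed more often here than between other neighbouring genes was not tested. On chromosome 11, Ccl5 (log2 fold change 9.29) is followed by Ccl9 (-3.33) and Ccl6 (-5.57) and then by Ccl3 (5.58) and Ccl4 (6.05). In the other group on that chromosome, Ccl11 (-5.32, a fitted value resting on 1 M1 count) lies between Ccl7 (2.64) and Ccl12 (7.38). On chromosome 5, Ppbp (-1.89) and Pf4 (-1.66) lie between Cxcl5 (2.96) and Cxcl3 (4.90). Among these genes, the neighbours of opposite direction are 6.893 to 54.756 kb apart.

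Among the members of at least 5 CPM, the M1 libraries differed from each other more than most genes did. The median absolute log2 ratio of replicate 1 to replicate 2 was 0.29 over 18 members in M1, against 0.10 over the 9159 tested genes of at least 5 CPM. In M2 it was 0.05 over 12 members and 0.05 over 9558 genes. Ccl2, Ccl7, Ccl8 and Ccl12 were higher in M1 replicate 1, with log2 ratios of 0.28, 0.56, 0.29 and 0.50. Cxcl1, Cxcl2, Cxcl3, Cxcl5 and Ccl22 were higher in M1 replicate 2, with log2 ratios of -0.66, -0.65, -0.47, -0.34 and -0.79. The CXCR3 ligands were split, Cxcl11 (0.39) and Cxcl10 (0.15) being higher in M1 replicate 1 and Cxcl9 (-0.15) in M1 replicate 2. No pattern by role was tested. Each of these differences was small beside the difference between the groups for the same gene, but they set the standard errors of Ccl7, Ccl22, Cxcl1 and Cxcl2. These 2 libraries differ in no label other than their title, and no cause was tested.

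**Figure D4:**
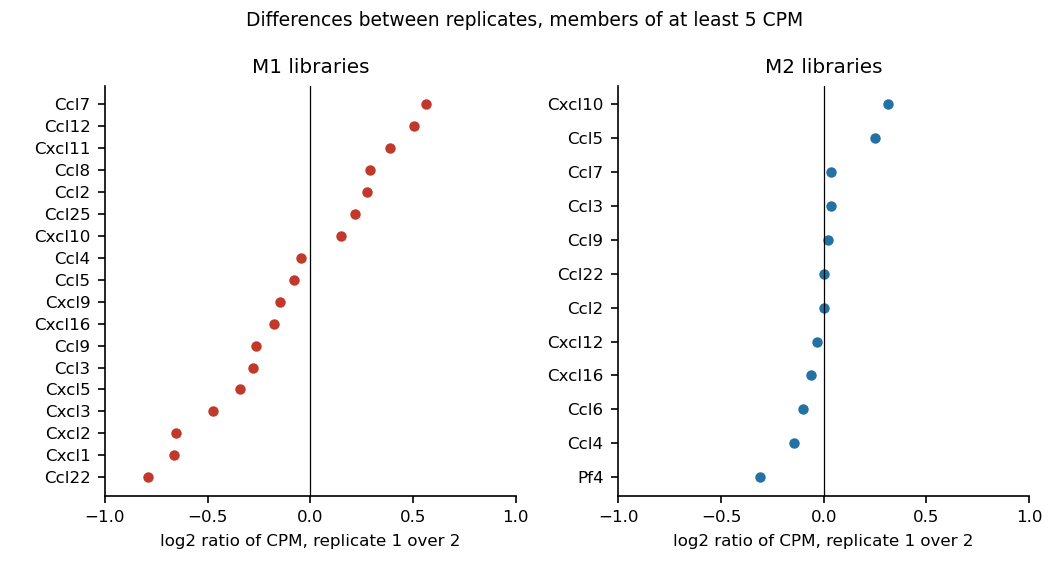
Log2 ratio of CPM in replicate 1 over replicate 2 for members of at least 5 CPM, in the M1 libraries (18 members) and the M2 libraries (12 members). In M1 the points spread from -0.79 for Ccl22 to 0.56 for Ccl7, and in M2 from -0.31 for Pf4 to 0.31 for Cxcl10.

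The receptors of these ligands went in both directions. Of 24 receptors listed, 12 were tested, 5 being higher and 4 lower in M1 and 3 not called (background 37.5% and 39.7%). Ccrl2, an atypical receptor that presents chemerin, had 653 ± 35.6 CPM in M1 and 8.99 ± 0.301 CPM in M2 (SD, n = 2 each; 72.4-fold higher in M1, edgeR adjusted p = 2.55e-17). Ccr7, which guides cells to lymph nodes, had 433 ± 14.5 CPM in M1 and 1.64 ± 0.349 CPM in M2 (271-fold higher in M1). Xcr1, known as a dendritic cell receptor, had 31.4 ± 0.711 CPM in M1 and 0.0753 ± 0.0163 CPM in M2 (386-fold higher in M1), and the other dendritic cell markers reached at most 2.20 CPM in any library. Cxcr4, the Cxcl12 receptor, had 6.22 ± 0.518 CPM in M1 and 83.7 ± 1.35 CPM in M2 (13.4-fold lower in M1, adjusted p = 3.24e-15). Ccr2 (3.59-fold) and the eotaxin receptor Ccr3 (14.2-fold) were lower in M1 as well. The calls of Cxcr5 and Ccr10, both under 1 CPM, were lost with DESeq2 (adjusted p = 0.233 and 0.333). They were also lost when tested against a log2 change of 1 (glmTreat, adjusted p = 0.446 and 0.496). That of Cxcr5 was lost under total-count scaling (edgeR adjusted p = 0.124) and that of Ccr10 without a filter (0.0739). Both were lost without any 1 of the 4 libraries as well. In these fits, where the other group alone gave the spread, the log2 fold changes were 1.015 to 1.193 for Cxcr5 and -0.96 to -1.20 for Ccr10, against 1.10 and -1.09 with all libraries.

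**Figure D5:**
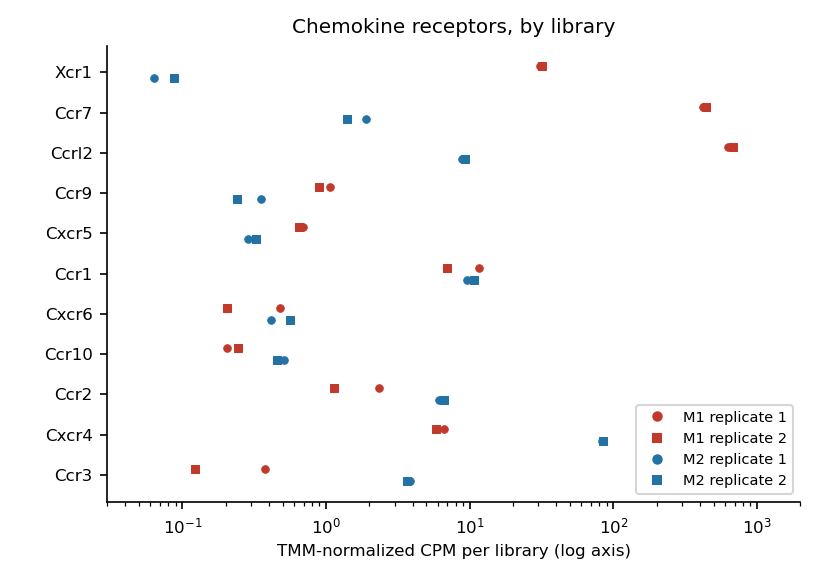
Level of 11 of the 12 tested chemokine receptors in each library as TMM-normalized CPM on a log axis, ordered by log2 fold change; circles are replicate 1, squares replicate 2, red M1 and blue M2. Xcr1, Ccr7 and Ccrl2 lie apart toward M1 and Ccr3 and Cxcr4 toward M2, and the groups overlap for Ccr1 and Cxcr6.

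Ccr1, a receptor of Ccl3 and Ccl5, was not called. It had 9.26 ± 3.31 CPM in M1 and 10.2 ± 0.796 CPM in M2 (SD, n = 2 each; log2 fold change -0.13, SE 0.22, edgeR adjusted p = 0.619). It passed as lower in M1 under total-count scaling (0.0248) and without M1 replicate 1 (3.67e-05, log2 fold change -0.57). The M1 libraries had 11.6 and 6.91 CPM, and in the second of these fits only the M2 pair gave the spread. Cxcr3 had 3 counts in M1 and 19 in M2, Cxcr2 had no count in M1 and 29 in M2, and Ccr4 had 3 counts in M1 and 1 in M2. None of these 3 passed the filter. Without a filter Cxcr2 (edgeR adjusted p = 6.82e-06) and Cxcr3 (0.0491) were called lower in M1. DESeq2 called Cxcr2 lower as well (adjusted p = 0.00361) but not Cxcr3 (0.333). The Cxcr3 counts were 2 in M2 replicate 1 and 17 in M2 replicate 2, and its groups overlapped.

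Of 14 enzymes that cut or modify chemokines, 11 were tested, 3 being higher and 7 lower in M1 (background 37.5% and 39.7%). Dpp4, which trims the ends of Cxcl10 and other chemokines, had 2.54 ± 0.432 CPM in M1 and 0.151 ± 0.0325 CPM in M2 (SD, n = 2 each; 16.2-fold higher in M1, edgeR adjusted p = 3.64e-08). The carboxypeptidase Cpd (7.00-fold) and the membrane protease Mmp14 (11.4-fold) were higher in M1 too. Mmp12, macrophage elastase, had 29.9 ± 0.679 CPM in M1 and 1316 ± 21.9 CPM in M2 (44.0-fold lower in M1, adjusted p = 5.27e-17). Adam10 and Adam17, sheddases that release Cxcl16 and Cx3cl1, were lower in M1 by smaller amounts (log2 fold changes -1.06 and -0.34).

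Of 19 genes of the pathways through which these stimuli act, all were tested, 14 being higher and 3 lower in M1 (background 37.5% and 39.7%), with a median log2 fold change of 2.17. Irf7 (255-fold), Stat2 (21.5-fold) and Irf1 (13.6-fold), transcription factors of the interferon response, were higher in M1. Irf4, a factor of the IL-4 response, had 0.447 ± 0.000874 CPM in M1 and 35.0 ± 0.414 CPM in M2 (SD, n = 2 each; 77.8-fold lower in M1, edgeR adjusted p = 5.50e-15), and Tlr4, the LPS receptor, and Ifngr1, a receptor chain for interferon gamma, were 3.41-fold and 2.52-fold lower in M1. Stat6, which carries the IL-4 signal, had 227 ± 8.99 CPM in M1 and 231 ± 0.148 CPM in M2 and was not called (adjusted p = 0.727), but passed as lower in M1 under upper-quartile (0.00459) and total-count scaling (3.15e-06). Irf3 (log2 fold change 0.40) lost its call under total-count scaling, where its log2 fold change was -0.05 (edgeR adjusted p = 0.449).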

How the data were processed

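Poly(A) RNA of 4 libraries, 2 M1 and 2 M2 by their labels, was prepared with a kit that does not mark strand and sequenced as paired reads, per the labels' protocols. The submitters' processing notes name Trimmomatic 0.36, STAR 2.5.2b, featureCounts, Subread 1.5.2, DESeq2, DESeq and GRCm38, without their roles. The authors deposited whole-number counts per gene, not normalized. Their deposited comparison table was not used. Symbols, positions and exon lengths came from GENCODE vM21 (48970 of 49315 IDs had a symbol) and promoters from RefSeq (29 of 42 members).

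In R 4.3.3, all genes went through filterByExpr (minimum count 10, total 15), TMM scaling and the robust quasi-likelihood F test of edgeR 4.0.16. Tests were two-sided, p-values were adjusted by Benjamini-Hochberg over the 14656 genes kept, and an adjusted p under 0.05 was a call. SE is the absolute log2 fold change over the square root of F. The fit was also run on simulated counts with far fewer and smaller changes than these data hold, and nothing here rests on that run. Replicates differed by more than counting noise (chi-square per degree of freedom 13.3 in M1 and 2.30 in M2). Members and lists were chosen with earlier results of these data known. Per-library values are given for members averaging 5 CPM or more in either group and for the CXCR3 and CCR4 ligands. Some genes of the lists are counted but not reported here by name. Lists are named by up to 3 called genes each way, by highest CPM. Ppbp, Ccl11, Ccl24, Ccl28, Cxcl14, Cx3cl1, Ccl27a, Ccr1, Ccr4, Cxcr2, Cxcr3, Stat6, Irf3 and the cell markers named singly were named after their values were seen. Alternatives were RLE, upper-quartile and total-count scaling, 2 other filters, DESeq2 1.42.0, limma-voom (limma 3.58.1), a non-robust fit, glmTreat against a log2 change of 1, and leaving out each library in turn.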

Additional observations from a re-analysis of the deposited data

How the results depend on the processing

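No paired analysis was possible because the replicate numbers follow accession order. The count of members called higher in M1, 17, was 16 or 17 in each alternative, and ranged from 16 to 17 when 1 library was left out. The count called lower, 11, ranged from 9 to 11 without 1 library and was 5 when at least 5 CPM in 2 libraries was required, since fewer genes were then tested. That filter left 3 receptors higher and 2 lower in M1, against 5 and 4. Without 1 library 4 receptors were called higher in each case and 4 to 7 lower. The 7 came without M1 replicate 1. A group left with 1 library is assumed in these fits to vary like the other. The ratio of summed chemokine CPM, 24.2, was 24.7 with RLE, 21.3 with upper-quartile and 17.8 with total-count scaling, and ranged from 23.9 to 24.6 without 1 library. Total-count scaling moved the median gene by -0.45 and upper-quartile scaling by -0.18 log2 units. The share of calls higher in M1 was 28.1% with the first and 39.2% with the second, against 48.6% with TMM. Of the fold changes of members given by the rule, 282 kept direction and call under alternatives, 3 lost the call and none reversed. The 3 were Ccl22 without either M2 library and Ccl25 tested against a log2 change of 1 (glmTreat, adjusted p = 0.405). That test also ended the calls of Cx3cl1 (0.120) and Cxcl14 (0.396). Ccl28 could not be tested without M2 replicate 2. Members under about 1 CPM rest on few counts, and intervals cover counting error only.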
